A study of Chlorocebus sabaeus with 3 samples.

Results

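A set of 7 small secreted protease inhibitors of epithelia were described in cell-free RNA of vervet monkey (Chlorocebus sabaeus) amniotic fluid. They were taken by name from the 33994 genes of each deposited file: WFDC2, SLPI and PI3, whose proteins carry whey acidic protein (WAP) domains, and SPINK1, SPINK5, SPINK6 and SPINK7, whose proteins carry Kazal domains. Each name occurred once in each of the 3 files, and all 7 genes had reads in all 3 libraries. The labels describe the RNA as cell free and its source as amniotic fluid supernatant, and each library is 1 sample. By its status label 1 was stillborn (gender label M), 1 a spontaneous abortion (gender label NA) and 1 alive (gender label F). The labels give no treatment and no gestational age. With 1 sample per status, outcome, the gender label and the individual animal cannot be told apart, and the comparisons set library against library, with no test. Values given in threes stand in the order stillborn, spontaneous abortion, alive.

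WAP and Kazal domains are compact folds held by disulfide bonds that present a loop to the active site of a serine protease and block it. In airways, genital tract and skin such inhibitors balance neutrophil elastase, trypsin-like proteases and the kallikreins that shed cornified cells. Fetal skin and the squamous epithelia of mouth and oesophagus, as well as airway, gut and amnion, border the amniotic fluid and can give RNA to it. In such a bulk fluid, RNA from more cells of a type and more RNA per cell cannot be told apart.

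The libraries held 17749954, 29926352 and 20220899 assigned reads, recovered from the deposited RPKM values, which scale reads to the gene's length in kilobases and to the library's total. RPKM are given as deposited. Ratios are of reads per library after scaling with TMM (trimmed mean of M-values). Each has an exact 95% interval that covers counting error of reads only. It covers neither the amplification before sequencing nor the spread between animals. A gene is called apart between libraries where the ratio is at least 4-fold, the interval lies on 1 side of 1, and the higher library has at least 30 reads.

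By RPKM, a single gene, WFDC2, made up nearly all of the signal of the 7 genes. WFDC2 (also known as HE4) is a secreted WAP protein of genital, airway and renal epithelia. Its RPKM was 1737 in the stillborn (95% Poisson interval 1718 to 1755), 2378 in the spontaneous abortion (2361 to 2395) and 2545 in the alive library (2524 to 2566). By RPKM it stood at rank 37, 13 and 15 of all genes, and it held 96.1%, 99.5% and 99.7% of the summed RPKM of the 7 genes. These shares depend on the gene lengths behind the RPKM values. By reads it held 33690 of 37215, 77782 of 78965 and 56246 of 56512. The 7 together were 0.415%, 0.627% and 0.641% of all RPKM. On the scaled reads WFDC2 was 1.31-fold higher in the alive than in the stillborn library (1.29 to 1.33) and 1.26-fold higher in the spontaneous abortion than in the stillborn library (1.24 to 1.28). Between spontaneous abortion and alive the difference was 1.04-fold (1.03 to 1.05). At 33690 to 77782 reads these intervals are narrow, and they leave out the choice of scaling. None of the 3 differences reached 4-fold.

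The other WAP members were much scarcer and did not share a pattern. SLPI, the secretory leukocyte protease inhibitor that blocks neutrophil elastase and cathepsin G, had 48, 47 and 47 reads. Its RPKM was 4.32 (3.19 to 5.73), 2.51 (1.84 to 3.34) and 3.71 (2.73 to 4.94), with overlapping intervals throughout. The ratio of stillborn over alive was 1.30 (0.851 to 1.99), and that of stillborn over spontaneous abortion was 1.87 (1.23 to 2.86). PI3, or elafin, blocks neutrophil elastase and proteinase 3 and is cross-linked into the cornified envelope of stressed keratinocytes. It had 137, 81 and 17 reads, at RPKM 7.29 (6.12 to 8.62), 2.56 (2.03 to 3.18) and 0.794 (0.462 to 1.27). The libraries thus stood in the order stillborn, spontaneous abortion, alive, with no overlap of the intervals. PI3 was 10.3-fold higher in stillborn than in alive (6.18 to 18.1), 3.31-fold higher in spontaneous abortion than in alive (1.94 to 5.96) and 3.10-fold higher in stillborn than in spontaneous abortion (2.34 to 4.13).

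**Figure D1:**
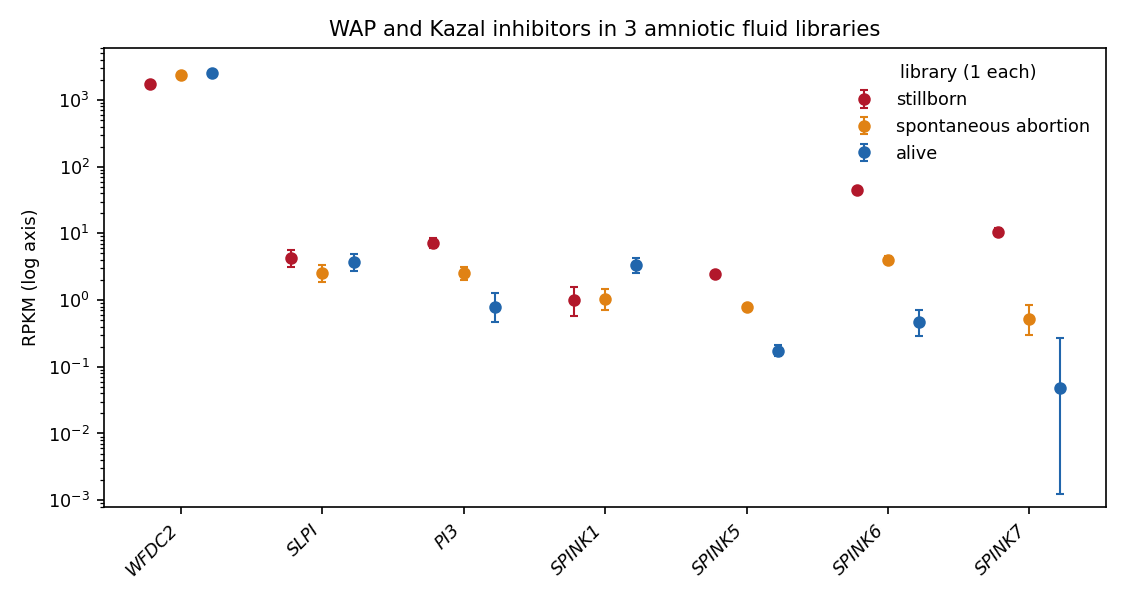
RPKM of the 7 inhibitor genes on a log axis in the 3 libraries, 1 per status, with exact 95% Poisson intervals as bars. WFDC2 lies at 1737 or higher in all 3 libraries, while PI3, SPINK5, SPINK6 and SPINK7 step down from stillborn to spontaneous abortion to alive and SPINK1 is highest in the alive library.

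The Kazal members SPINK5, SPINK6 and SPINK7 followed the same order as PI3, over wider ranges. SPINK5 encodes LEKTI, a multidomain inhibitor of epidermal kallikreins whose loss causes Netherton syndrome in humans. It had 1376, 740 and 111 reads, at RPKM 2.45 (2.33 to 2.59), 0.783 (0.727 to 0.841) and 0.174 (0.143 to 0.209). It was 15.8-fold higher in stillborn than in alive (13.0 to 19.3), 4.63-fold higher in spontaneous abortion than in alive (3.79 to 5.70) and 3.41-fold higher in stillborn than in spontaneous abortion (3.11 to 3.73). SPINK6, a single-domain kallikrein inhibitor of skin, had 1756, 267 and 21 reads, at RPKM 44.8 (42.7 to 46.9), 4.04 (3.57 to 4.55) and 0.470 (0.291 to 0.718). Among genes above 0 in their library, 95.3% lay at or below SPINK6 in the stillborn library and 37.4% in the alive library. SPINK6 was 8.83-fold higher in spontaneous abortion than in alive (5.66 to 14.5) and 12.1-fold higher in stillborn than in spontaneous abortion (10.6 to 13.8). Over the whole span, stillborn against alive, it differed 106-fold (69.4 to 172).

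SPINK7, first described in oesophageal epithelium, had a course like that of SPINK6 at fewer reads. Its 190, 16 and 1 reads gave RPKM 10.4 (9.0 to 12), 0.521 (0.298 to 0.846) and 0.0482 (0.00122 to 0.269). The ratio of stillborn over spontaneous abortion was 21.8 (13.1 to 38.8). With a single alive read, the ratio of stillborn over alive was 242 with an interval of 42.9 to 9601, which includes the 106-fold of SPINK6, and that of spontaneous abortion over alive was 11.1 (1.73 to 466). The last did not count as apart, since 16 reads are under the minimum of 30.

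SPINK1 ran the other way. It encodes the trypsin inhibitor of the pancreas, which is also made in gut and other mucosae. It had 18, 32 and 69 reads, at RPKM 0.987 (0.585 to 1.56), 1.04 (0.712 to 1.47) and 3.32 (2.59 to 4.20). It was 3.01-fold higher in alive than in stillborn (1.77 to 5.38) and 3.10-fold higher in alive than in spontaneous abortion (2.01 to 4.88), short of 4-fold in both. The stillborn and spontaneous abortion libraries were close, with a ratio of 1.03 (0.545 to 1.89). Of the pancreatic acinar list, 8 of 12 genes were in the files. Trypsin PRSS2, chymotrypsin CTRC and lipase PNLIP among them were listed at 0 in all 3 libraries, and the 8 summed to RPKM 0.165, 0.0155 and 0.128. CPA1, a carboxypeptidase, and GP2, a zymogen granule protein, had the highest means of that list, at RPKM 0.0427 and 0.0348. The intestinal list, led by the fatty acid binding proteins FABP1 and FABP2, summed to RPKM 105, 56.1 and 69.0. None of its 9 genes was apart between stillborn and alive, and APOA4, an apolipoprotein of enterocytes, was 5.38-fold higher in spontaneous abortion than in alive (3.37 to 9.06).

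Counted by the rule, 4 of the 7 genes (PI3, SPINK5, SPINK6 and SPINK7) were apart as higher in stillborn than in alive and 0 as lower, where 7.95% of the 13398 genes with at least 30 reads in either library were apart, 4.7% higher and 3.25% lower. In spontaneous abortion over alive, 2 of 7 (SPINK5 and SPINK6) were higher and 0 lower, where 3.8% of 13750 genes were apart, 2.3% higher and 1.51% lower. In stillborn over spontaneous abortion, 2 of 7 (SPINK6 and SPINK7) were higher and 0 lower, where 4.49% of 13755 genes were apart, 2.82% higher and 1.66% lower. The median log2 ratio of the 7 was 3.36, 1.73 and 1.63 in the 3 comparisons, where that of all genes with 30 reads was -0.02, 0.01 and -0.04. The comparisons share libraries and are not independent of each other. The 7 genes were chosen with earlier results of these data known, so setting them beside all genes is a description and no test. SPINK6 and SPINK7 were higher in stillborn than in both others, as were 1.98% of 14032 genes.

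**Figure D2:**
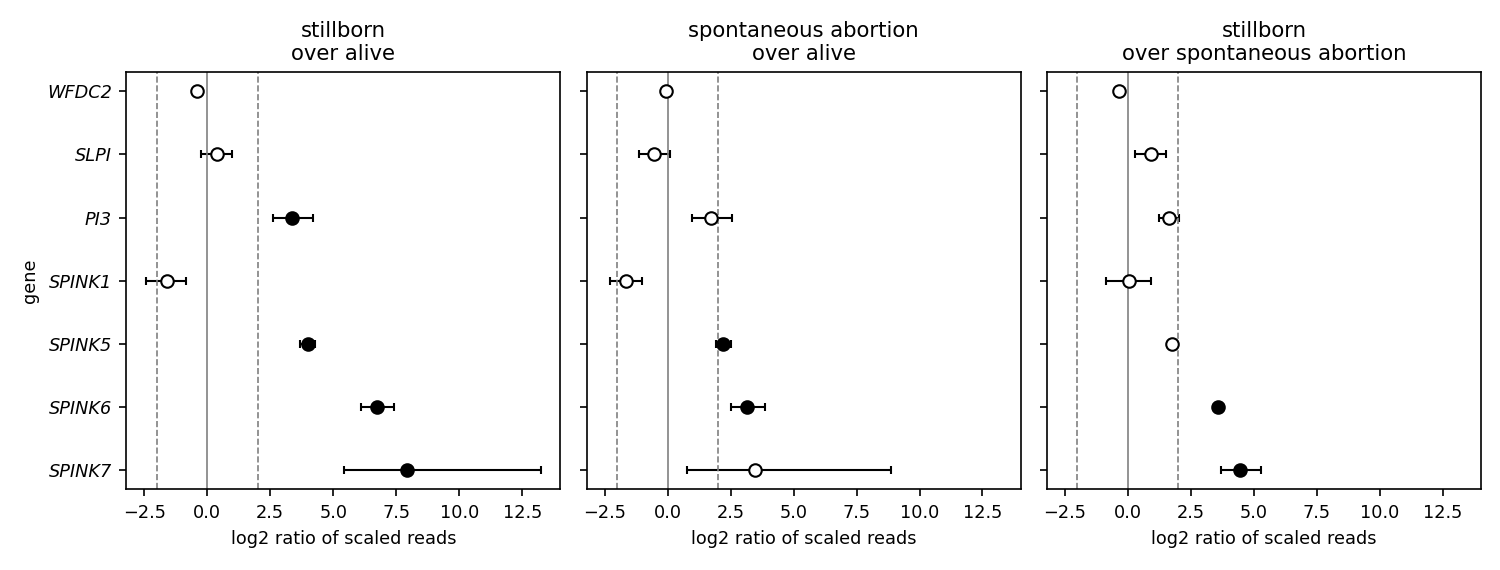
Log2 ratios of scaled reads for the 7 genes in the 3 comparisons, with exact 95% intervals for counting error as bars, 4-fold marked by dashed lines, and filled points for genes called apart. Filled points number 4, 2 and 2 and all lie to the right of 0, WFDC2 and SLPI stay within 2-fold of 0, and SPINK1 lies to the left where alive is the reference.

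The order of the genes by level per length differed between the libraries. In the stillborn library WFDC2 was followed by SPINK6, SPINK7, PI3, SLPI, SPINK5 and SPINK1, with no overlap between the intervals of neighbours. In the alive library the order after WFDC2 was SLPI, SPINK1, PI3, SPINK6, SPINK5 and SPINK7. There SLPI and SPINK1, PI3 and SPINK6, and SPINK5 and SPINK7 had overlapping intervals. In the spontaneous abortion library SPINK6 came second, PI3 and SLPI at RPKM 2.56 and 2.51 had overlapping intervals, and SPINK1, SPINK5 and SPINK7 followed, each overlapping the next. Levels of different genes depend on the gene length behind the RPKM values. The smallest length that gives whole reads was 626 bases for SLPI, 1027 for SPINK1, 1026 for SPINK7, 1059 for PI3, 1093 for WFDC2 and 2210 for SPINK6, but 31597 for SPINK5. SPINK5 thus had 1376 stillborn reads, near the 1756 of SPINK6, at an RPKM of 2.45 beside 44.8. Such lengths exceeded the RefSeq span of the whole gene for 1417 of 12081 genes, so the lengths used by the authors can be longer than a transcript, and the place of SPINK5 in these orders rests on its length. Ratios between libraries for 1 gene are free of it.

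Kallikreins, the trypsin- and chymotrypsin-like serine proteases that SPINK5 and SPINK6 block in skin, were apart in both directions. All 15 KLK genes on the list were in the files, and KLK2 and KLK9 were listed at 0 throughout. In stillborn over alive 9 of the 15 reached 30 reads, 6 were apart as higher and 2 as lower. The higher ones were KLK6, KLK10, KLK11, KLK12, KLK13 and KLK14. KLK6 had 105, 35 and 0 reads. With 0 alive reads the exact interval has no upper end, and KLK6 was at least 35.6-fold higher in stillborn than in alive, its lower limit, with a ratio of 44.5 against a floor of 3 reads. KLK14, a trypsin-like activator of other kallikreins, had 73, 13 and 0 reads and was at least 24.6-fold higher by the lower limit, with a ratio of 31.0 against 3 reads. KLK13 had 65, 13 and 1 reads and a ratio of 82.7 (14.3 to 3317).

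KLK11 had 54, 34 and 3 reads and a ratio of stillborn over alive of 22.9 (7.43 to 115). KLK10 was 14.5-fold higher (7.04 to 34.5) and KLK12 7.17-fold higher (3.75 to 15.1). For these 6 genes the stillborn value was the highest of the 3 and the alive value the lowest. In stillborn over spontaneous abortion 5 of the 6 were apart as higher, between 4.54-fold for KLK12 and 10.3-fold for KLK14. In spontaneous abortion over alive only 5 of the 15 reached 30 reads. KLK11 was 7.87-fold higher there (2.48 to 40.1) and KLK6 at least 6.25-fold higher by the lower limit (8.10 against 3 reads). The other 13 were not apart, most of them under the read minimum.

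The 2 kallikreins apart as lower in stillborn were KLK4 and KLK3. KLK4, known from enamel and prostate, was at RPKM 1.18, 10.8 and 9.95 and 7.57-fold higher in alive than in stillborn (5.41 to 10.9). KLK3, the prostate-specific antigen, had 4, 59 and 154 reads and was 30.3-fold higher in alive than in stillborn (11.6 to 112). Its reads are uncertain, because KLK2, listed at 0 throughout, is a close copy of it. How reads were shared between them was not tested. The RefSeq annotation used here holds no gene named KLK3, so the identity of this entry is uncertain too. KLK1, tissue kallikrein, was at RPKM 1.01, 3.08 and 2.94, not apart. KLK4 and KLK3 were also 8.47-fold (6.10 to 12.1) and 8.05-fold (2.98 to 30.5) higher in spontaneous abortion than in stillborn. KLK5 and KLK7, the best known targets of SPINK5, had few recovered reads, with 5, 4 and 0 and with 2, 2 and 1. Their RPKM was 0.0332, 0.0157 and 0 for KLK5 and 0.268, 0.159 and 0.117 for KLK7. The KLK7 reads are lower bounds that rest on a smallest length of 421 bases. KLK8 had 3, 2 and 1 and KLK15 2, 7 and 6 reads.

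**Figure D3:**
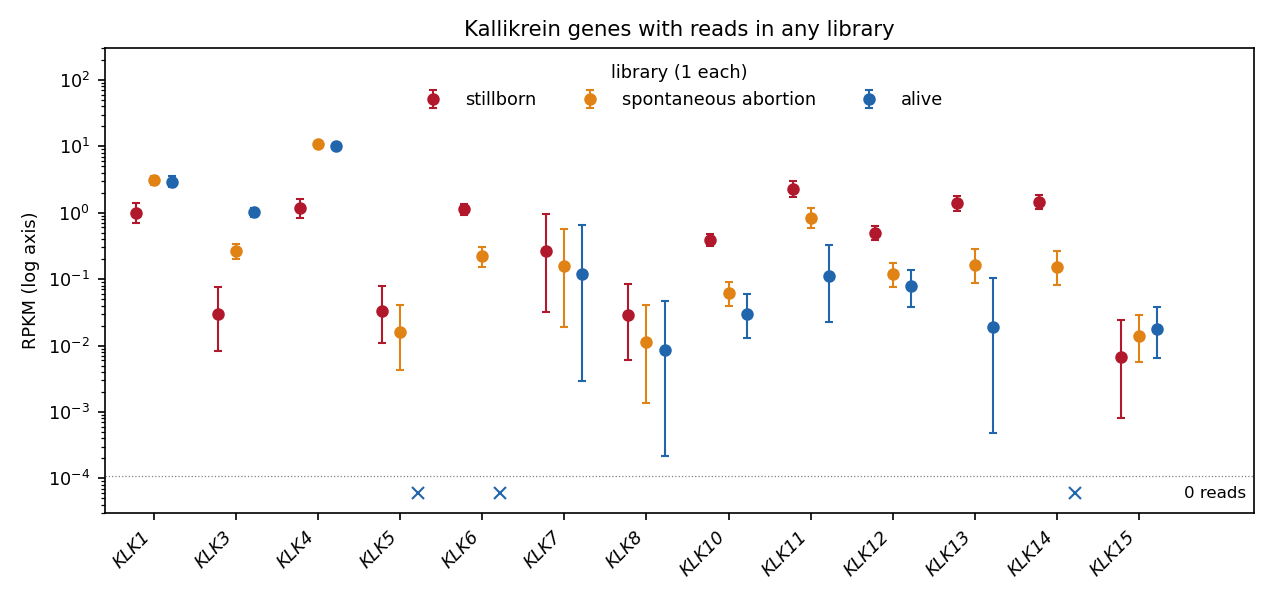
RPKM of the 13 kallikrein genes with any read, on a log axis, in the 3 libraries, with exact 95% Poisson intervals as bars and crosses at the bottom for 0 reads. KLK6 and KLK10 to KLK14 are highest in the stillborn library, and KLK1, KLK3 and KLK4 are lowest there.

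Kallikreins shed skin cells by cutting corneodesmosomes, the junctions of the cornified layer. Of 3 corneodesmosome genes, DSG1, the desmoglein of upper epidermal layers, was 4.93-fold higher in stillborn than in alive (4.57 to 5.32). CDSN, corneodesmosin, was at RPKM 1.44, 1.24 and 1.30, with a ratio of 1.24 (0.772 to 1.99). DSC1, a desmocollin, was at RPKM 1.23, 1.51 and 0.561.

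The neutrophil proteases that SLPI and PI3 block were not detected. ELANE (elastase), PRTN3 (proteinase 3) and CTSG (cathepsin G) were each listed at 0 in all 3 libraries. AZU1 (azurocidin), another neutrophil granule gene, was also listed at 0 throughout. A count of 0 in libraries of 17749954 to 29926352 reads does not exclude RNA at a low level. Of the 12 neutrophil markers, 5 were listed at 0 in every library, namely ELANE, PRTN3, CTSG, MPO and S100A12. The calgranulins S100A8 and S100A9, also made by stressed keratinocytes, were apart: S100A8 was at least 21.8-fold higher in stillborn than in alive by the lower limit (27.6 against 3 reads) and 14.9-fold higher than in spontaneous abortion (7.13 to 35.9), and S100A9 10.4-fold higher in stillborn than in alive (5.93 to 19.6). Of the same list, MMP8 (neutrophil collagenase) had 23, 7 and 0 reads, CAMP (cathelicidin) 23, 16 and 4 and CXCR2 (a chemokine receptor) 10, 3 and 3, all highest in the stillborn library and under the read minimum. CSF3R, also of this list, had 0, 8 and 0 reads, so only the spontaneous abortion held any. Lactotransferrin (LTF), which epithelia also make, was at RPKM 33.3, 36.4 and 105, and this one gene held most of the list's summed RPKM of 51.7, 40.2 and 107.

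Among membrane and trypsin-like proteases, 21 of 27 listed genes were in the files. In stillborn over alive 8 reached 30 reads, 2 were apart as higher and 1 as lower. TMPRSS11B, a transmembrane protease of upper digestive epithelium, had 106, 4 and 1 reads and a ratio of stillborn over alive of 135 (23.7 to 5378). Against the spontaneous abortion it was 48.6-fold higher (18.4 to 182). TMPRSS11D, the airway trypsin-like protease, had 33, 4 and 4 reads and was 10.5-fold higher in stillborn than in alive (3.73 to 40.8) and 15.1-fold higher than in the spontaneous abortion (5.38 to 58.7). TMPRSS2, a protease of prostate, gut and airway epithelium, was 8.03-fold higher in alive than in stillborn (4.63 to 15.1) and 5.28-fold higher than in the spontaneous abortion (3.68 to 7.73). TMPRSS11E was 5.38-fold higher in spontaneous abortion than in alive (1.90 to 21.0). PLAU, the urokinase that SPINK7 is reported to bind in human cells, had 0, 22 and 14 reads. The most abundant of the list, TMPRSS11F and the plasminogen activator PLAT, had means of RPKM 11.1 ± 2.70 and 9.51 ± 2.16 (SD, n = 3 libraries) and were not apart.

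The rest of the WAP family was sparse. Of 16 further WAP genes 14 were in the files, 4 of them at 0 throughout, and 1 was apart. Only 1 reached 30 reads in either comparison with stillborn, and 0 did between spontaneous abortion and alive. WFDC5, a neighbour of PI3 expressed in skin, had 86, 18 and 11 reads. It was 9.95-fold higher in stillborn than in alive (5.29 to 20.7) and 8.76-fold higher in stillborn than in spontaneous abortion (5.22 to 15.5). WFDC12 had 11, 2 and 0 reads and WFDC1 24, 9 and 0, both under the read minimum. Of the 5 further SPINK genes in the files, SPINK4, SPINK9 (listed as LOC103244764) and SPINK13 were at 0. SPINK2, best known from testis, had 52, 57 and 37 reads and was not apart, with a ratio of stillborn over alive of 1.79 (1.15 to 2.80). SPINK8 had 13, 4 and 1 reads.

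Kazal domains also occur in larger proteins, and these gave no common direction. Of 23 such genes, 8, 9 and 8 reached 30 reads in the 3 comparisons, and RECK and IGFBP7 were apart, in opposite directions. RECK, a membrane inhibitor of metalloproteinases, had 69, 50 and 8 reads and was 11.0-fold higher in stillborn than in alive (5.27 to 26.4) and 4.34-fold higher in spontaneous abortion than in alive (2.04 to 10.6). IGFBP7 was 4.60-fold higher in alive than in stillborn (2.04 to 12.2) and 5.90-fold higher than in the spontaneous abortion (2.91 to 13.2). The matrix proteins SPARC and FSTL1 had the highest levels, at mean RPKM 163 ± 26.0 and 81.0 ± 29.2 (SD, n = 3 libraries), and were not apart.

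Inhibitors of other families were also examined. Of 11 genes, A2ML1, an alpha-2-macroglobulin-like inhibitor of keratinocytes, was 7.09-fold higher in stillborn than in alive (5.39 to 9.48) and 5.11-fold higher than in the spontaneous abortion (4.14 to 6.33). The cystatins CSTA and CSTB, inhibitors of cysteine proteases, were at RPKM 226, 105 and 68.2 and at 211, 71.2 and 74.2, with ratios of stillborn over alive of 3.71 (3.42 to 4.02) and 3.17 (2.98 to 3.38). TFPI2, a Kunitz inhibitor of placenta, had 2, 44 and 27 reads and was 12-fold higher in spontaneous abortion than in stillborn (3.13 to 102).

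Of 14 markers of squamous epithelium, 9 were apart as higher in stillborn than in alive and 0 as lower, and their summed RPKM was 1022, 569 and 369. SPRR3, a cornified envelope protein, differed by 57.7-fold and CRNN (cornulin) by 33.2-fold, KRT14 by 9.37-fold, SBSN by 6.74-fold, MAL by 6.34-fold and KRTDAP by 6.14-fold. DSG1, KRT6A and KRT10 lay between 4.03-fold and 4.93-fold. The other 5 were not apart. KRT5, with the highest mean of the list after KRT6A, was at RPKM 49.1, 151 and 151. KRT1, KRT4 and KRT13 were highest in the spontaneous abortion, at RPKM 33.2, 38.0 and 14.6, at 18.0, 29.2 and 18.1 and at 24.0, 33.7 and 19.5, and IVL (involucrin) was at 3.94, 2.88 and 1.35. CRNN was also 8.43-fold higher in spontaneous abortion than in alive, and SPRR3 and KRTDAP were 30.8-fold and 4.14-fold higher in stillborn than in spontaneous abortion. The simple epithelial markers summed to RPKM 512, 665 and 828, most of it KRT19 at 316, 434 and 554, followed by KRT18 at 90.4, 110 and 124, and 0 of 10 were apart in any comparison. Others of that list had another order, with EPCAM at RPKM 12.5, 5.69 and 5.97, ELF3 at 1.31, 1.1 and 0.860, CLDN4 at 3.69, 3.11 and 3.41 and CDH1 at 5.73, 6.82 and 4.22. Of 9 airway secretory markers, SCGB1A1 and MUC5B were apart as higher in stillborn than in alive and than in spontaneous abortion, SCGB3A2 and BPIFA1 as higher in stillborn than in spontaneous abortion, and SCGB3A1, SCGB3A2 and MUC5AC as lower in spontaneous abortion than in alive. What part the mix of cell types had in the inhibitor values was not tested.

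In the RefSeq annotation (assembly mChlSab1.0.hap1, used for gene order alone, since no source used here names the build of the files), the 7 genes sit in 2 blocks. SPINK7, SPINK6, SPINK5 and SPINK1 lie in that order on chromosome 23. Of the 13 genes from SPINK9 to SPINK1, 9 were in the files, and 5 of them reached 30 reads in stillborn or alive. Of those 5, SPINK7, SPINK6 and SPINK5 were apart as higher. SCGB3A2, an airway secretoglobin, had 121, 10 and 41 reads and a ratio of stillborn over alive of 3.76 (2.62 to 5.49), and SPINK1 beside it ran the opposite way. By RefSeq span SPINK1 overlaps SCGB3A2 and SPINK7 overlaps the long non-coding LOC103244766. Reads of overlapping genes cannot be told apart here, since no source used here gives the strand setting. WFDC2, SLPI and PI3 lie on chromosome 2 between WFDC8 and WFDC5, in a stretch of 19 genes with 16 in the files. Of the 9 with at least 30 reads there, PI3, WFDC5 and RBPJL, a transcription factor gene, were apart as higher. WFDC2 and its other neighbours PIGT, DBNDD2, SYS1 and SDC4 had ratios between 0.762 and 1.13.

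**Figure D4:**
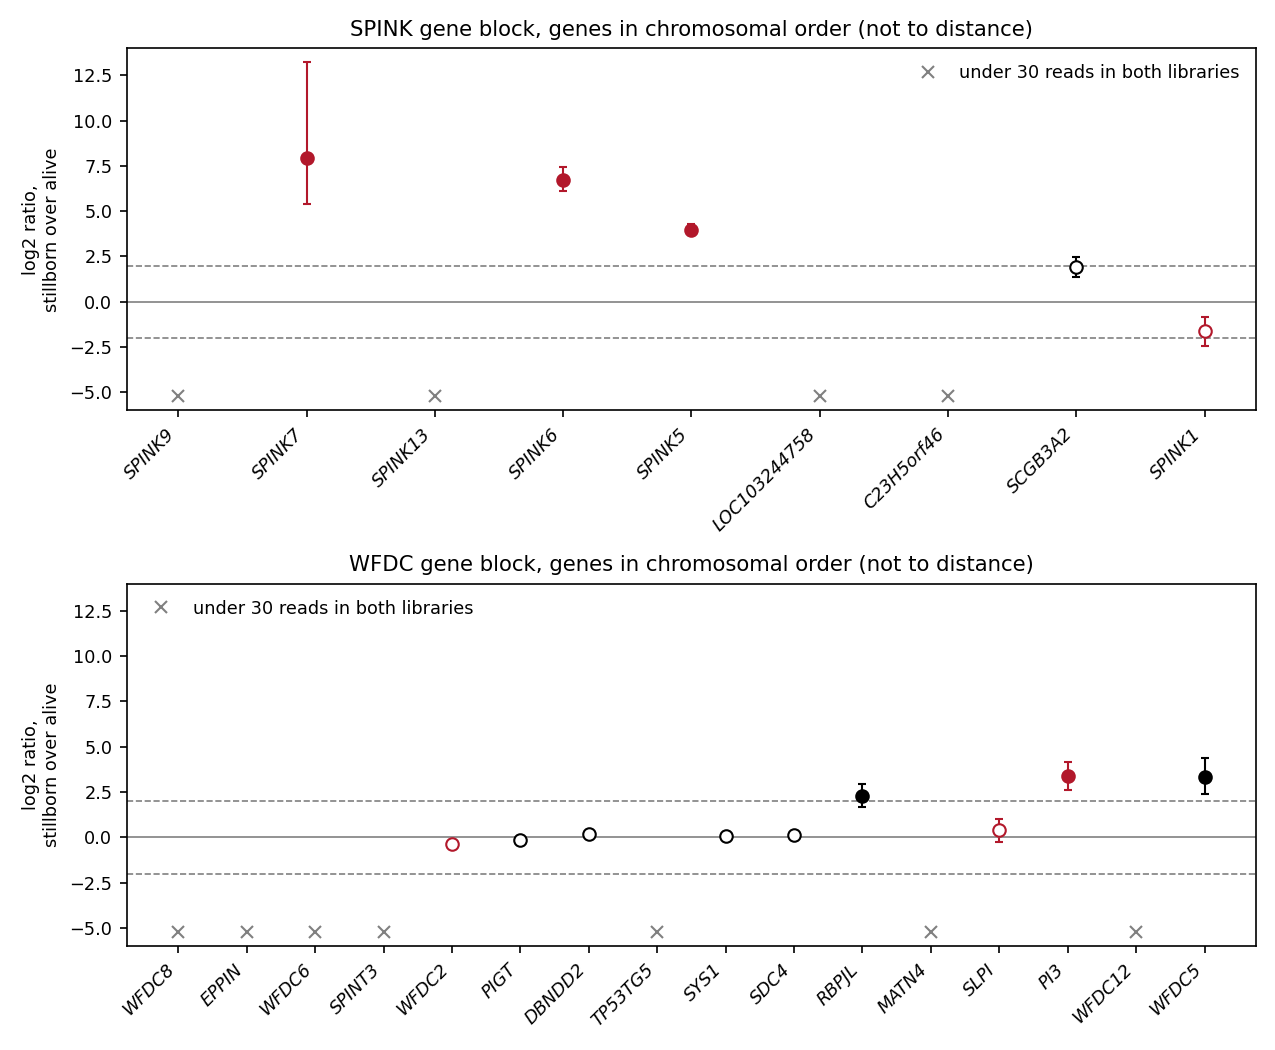
Log2 ratio of scaled reads, stillborn over alive, for the genes of the SPINK and WFDC blocks that are in the files, in chromosomal order and not to distance. Bars are exact 95% intervals, members are red, filled points are apart, dashed lines mark 4-fold and crosses mark genes under 30 reads in both libraries. SPINK7, SPINK6 and SPINK5 stand high beside SPINK1 below 0, and PI3 and WFDC5 stand high beside SLPI near 0.

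Genes of most similar course over the 3 libraries were sought among 8344 genes with a symbol, a mean RPKM of at least 1 and at least 30 reads in a library, by the distance of centred log2(RPKM + 0.1) values. With 3 libraries, likeness is a weak criterion. For WFDC2, 1732 genes lay within a distance of 0.25, and the nearest were RSF1, ARGLU1 and NARF. For SLPI 157 did, led by TMED9, STX8 and RASGRP3. The courses of the other 5 were rarer. SPINK1 had 19 genes within that distance, the nearest being LTF, TMEM53 and HAAO. SPINK5 had 4 and PI3 had 2. ZNF474 was the nearest to both, followed by SH3BGRL2 and ELF5 for SPINK5 and by KRT14 and SH3BGRL2 for PI3. SPINK6 had 2, S100A8 and BCL2A1, followed by MSMB at a greater distance. SPINK7 had 0, and its nearest were PDPN, S100A8 and BCL2A1.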

How the data were processed

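RNA was isolated from 3 amniotic fluid supernatants, turned into cDNA with SPIA amplification and sequenced on a HiSeq2500, per the labels' protocols. The tools bcl2fastq 2.17, HTSeq and STAR appear in the submitters' processing notes, with no role given. No source used here names other versions, the build, the annotation, the strand setting or the unit of counting (reads or pairs). The values deposited by the authors are RPKM per gene, 1 file per library, with the gene length they used left unstated.

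Whole reads were worked back from the RPKM ratios of each gene between libraries. This succeeded, to the printed precision, for 23150 of the 23276 genes with any signal (99.5%). Each recovered number is a lower bound, and they sum to 95.0% to 95.9% of the library totals. Without molecular identifiers, reads are not known to be separate molecules, and intervals cover counting error of reads only. Recovery and ratios were checked on simulated reads.

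TMM factors were 0.937 (stillborn), 1.02 (spontaneous abortion) and 1.05 (alive). RPKM intervals are exact Poisson, and ratio intervals are Clopper-Pearson given the sum of both reads, the 0 included. Only a ratio's point value takes 3 reads in place of 0. With 1 sample per status no test was made. Means ± SD are over the 3 libraries. Of each list, genes apart in any comparison and the 2 with the highest mean RPKM were named. Genes named beyond this, such as KLK5, KLK7, PLAU, WFDC1, MMP8, KRT1, EPCAM and the block neighbours, were chosen after their values were seen. The 7 genes, lists and rules were chosen with earlier results of these data known. Alternatives are in the closing section. Python 3.11.15, numpy 2.4.6, scipy 1.17.1 and pandas 2.3.3 were used.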

Additional observations from a re-analysis of the deposited data

How the results depend on the processing

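With a fold of 2 in place of 4, the count of the 7 inhibitor genes apart was 5 in stillborn over alive (4 higher, 1 lower), 4 in spontaneous abortion over alive (3 higher, 1 lower) and 4 in stillborn over spontaneous abortion (4 higher, 0 lower), against 4, 2 and 2, all higher. The member called lower at a fold of 2 was SPINK1. With a fold of 8 the count was 4, 1 and 2. A minimum of 10 reads, or none, gave 4, 3 and 2. Scaling by total assigned reads, by the median of ratios, or by TMM over genes averaging RPKM 1 or more, and thinning every library to the smallest total, each left 4, 2 and 2. Under these 4 settings the log2 ratio of SPINK1 in stillborn over spontaneous abortion, which was not called, ranged from -0.15 to 0.07, and no other member's ratio changed sign. Stillborn over alive ranged from 3.20 to 3.39 for PI3, from 3.82 to 4.12 for SPINK5, from 6.57 to 6.76 for SPINK6 and from 7.74 to 7.95 for SPINK7. For WFDC2 stillborn over alive ranged from -0.551 to -0.362. Its spontaneous abortion over alive ranged from -0.098 to -0.054, and its stillborn over spontaneous abortion from -0.454 to -0.308. Each of these WFDC2 ranges reached outside its narrow counting interval. On the scale log2(RPKM + 1), 10 of 21 ratios fell outside their counting interval, since that scale understates low genes. Over all genes, those apart in the 3 comparisons numbered 1065, 523 and 617, against 3421, 1839 and 2071 with a fold of 2, 477, 211 and 284 with a fold of 8, 1863, 1134 and 1177 with a minimum of 10 reads and 1946, 1232 and 1362 with none. No paired analysis was possible because each status has 1 sample, and for the same reason no replicate could be left out. SPINK7 and KLK13 rest on 1 read each in the alive library, so their ratios against it have wide intervals.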
